A study of Mus musculus with 8 samples.

Results

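The core circadian clock genes of the liver were the 10 rows of the deposited table named Arntl, Clock, Npas2, Per1, Per2, Per3, Cry1, Cry2, Nr1d1 and Dbp. They were chosen by symbol from the table's 21532 genes, and all 10 were present and passed the filter on low values. Liver RNA had been sequenced from 8 male db/db mice, a C57BL/6J strain whose leptin receptor is defective in every tissue, so that obesity and diabetes are shared by both groups. From 8 weeks of age, 4 mice were treated as control and 4 received AF1 peptide. This peptide was derived from estrogen receptor α and joined to a TAT sequence that carries it into cells. Both treatments were given at 5 mg/kg body weight through retro-orbital injection, 2 times per week for 5 weeks, with 1 library per mouse. The housing had equal light and dark periods and free access to chow. The clock time of collection and the feeding state at collection are not given in the sources used here. No wild-type liver was analysed here, and the comparison is AF1 peptide against control within db/db livers.

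The circadian clock is a transcriptional loop. Arntl (the gene of BMAL1) pairs with Clock or its relative Npas2 to activate genes that carry an E-box, among them the Per, Cry, Nr1d1 and Dbp genes. PER and CRY proteins then repress their own activators, the nuclear receptor REV-ERBα (Nr1d1) represses Arntl and Npas2 through RORE sites that the ROR receptors activate, and DBP activates D-box genes such as Per3. In mouse liver, Nr1d1, Dbp and Per3 transcripts are known to peak during the light period, Per1 and Per2 somewhat later, and Arntl and Npas2 close to the opposite time of day. The ratio between these anti-phase groups in a single liver therefore moves with the time of day. Feeding, glucocorticoids and body temperature can also move liver clock genes, Per1 and Per2 in particular.

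The annotated starts of these genes were searched for the motifs of the loop. RefSeq windows of GRCm38.p6 (the authors aligned to mm39), from 250 bases before to 50 after a start, covered 9 of the 10 genes (not Per2) in 13 windows. The letters searched on both strands were CACGTG (E-box), CACGTT (a variant E-box), TTATGTAA or TTACGTAA (D-box), TAGGTCA or TGGGTCA (the core of the RORE) and TGACGTCA (CRE). The 5 stretches below are shown because each holds the motif of one arm of the loop, which is printed in capitals in the gene's own direction. The Cry1 stretch also holds a variant E-box, left in lower case, which does not overlap its E-box.
Per3 (D-box, chr4:151044801-151044885, minus strand): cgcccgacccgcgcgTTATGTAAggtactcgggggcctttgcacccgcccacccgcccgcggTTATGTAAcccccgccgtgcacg
Per1 (E-box, chr11:69098758-69098813, plus strand): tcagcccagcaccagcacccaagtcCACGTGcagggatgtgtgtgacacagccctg
Cry1 (E-box, chr10:85185084-85185139, minus strand): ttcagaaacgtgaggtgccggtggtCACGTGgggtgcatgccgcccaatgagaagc
Nr1d1 (variant E-box, read on the other strand, chr11:98775378-98775430, minus strand): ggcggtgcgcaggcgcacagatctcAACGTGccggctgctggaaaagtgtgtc
Arntl (RORE core, chr7:113207530-113207558, plus strand): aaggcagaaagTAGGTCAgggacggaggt

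The Per3 window held 2 D-boxes, with first bases at positions -205 and -158 from the start. D-box letters occur in 1.06% of the 32851 windows of the table and in 1 of the 9 clock genes. The E-box occurred in 2 of the 9 (Per1 and Cry1) against 7.15% of all windows, the variant E-box in 3 (Cry1, Cry2 and Nr1d1) against 4.68%, the RORE core in 1 (Arntl) against 6.45%, and the CRE in 0 against 1.79%. A gene was counted if any of its windows held the motif, whereas the percentages are of single windows. Genes with several windows are favoured by this count. The Arntl match lay in the transcribed part, at position 31. These matches describe the letters in short windows and are not evidence of binding in these livers.

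The libraries held 23031880 to 45117528 recovered reads. AF1 peptide-treated mouse 1 stood apart from the other mice: it had the highest or the lowest value of the 8 mice in 49.3% of the 15989 genes tested, against 12.7% to 33.4% for each other mouse. For that reason results are also given without it. Hepatocyte genes were present at high levels in each mouse, with a summed normalized count of 6 markers of 1579210 in that mouse and of 2028410 to 2442186 in the others. Most of this sum was Alb (albumin), and by gene that mouse was the highest of the 8 in 3 of the 6 markers and the lowest in 3. The mitochondrial genes took 20.8% of its reads, the lowest share, against 22.4% to 34.3% in control mice and 34.3% to 37.8% in the other treated mice. The summed level of 6 Kupffer cell markers was 1946 in it, the lowest of the 8 mice in 5 of the 6 markers, and 4341 to 5473 in the others. The 2 tested genes of the adipocyte list differed in it. Cidec had 243 normalized counts in that mouse and 3542 to 4768 in the others, whereas Fabp4 had 444 in it and 482 to 884 in the others. Adipoq, Lep and Plin1 are not rows of the table, so the share of fat cells was not measured. The part of these differences in the clock results was not tested. In bulk tissue, fewer cells of a type and less RNA per cell cannot be told apart.

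The 10 genes differed widely in level. Per kilobase of merged exon in control livers, Dbp was the most abundant at 900 ± 72.7 normalized counts per kb (SD, n = 4), followed by Nr1d1 at 671 ± 69.5 and Per2 at 388 ± 73.1 (SD, n = 4 each). Per1 followed at 349 ± 32.3, Per3 at 166 ± 50.9 and Cry2 at 123 ± 16.1 counts per kb (SD, n = 4 each). Cry1 at 26.7 ± 3.56, Clock at 22.0 ± 3.55, Arntl at 4.50 ± 1.94 and Npas2 at 4.09 ± 1.04 counts per kb (SD, n = 4 each) were lower. The values of neighbours in this order overlapped between Per2 and Per1, between Per3 and Cry2, between Cry1 and Clock, and between Arntl and Npas2. Dbp, Nr1d1 and the Per genes were above Arntl and Npas2 in every one of the 8 livers.

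**Figure D1:**
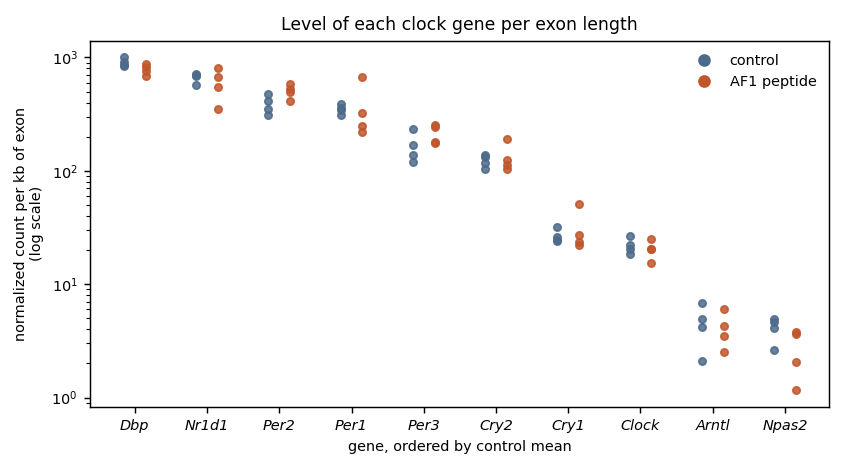
Normalized read count per kilobase of merged exon (log scale) of each clock gene, with 1 point per mouse, ordered by the control mean. Dbp and Nr1d1 lie highest and Arntl and Npas2 lowest in control livers (900, 671, 4.50 and 4.09 counts per kb), and the means of the AF1 peptide-treated mice for these genes were 789, 594, 4.08 and 2.67.

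A phase index, the balance of the anti-phase genes within each mouse, was used to see whether the livers differed in clock state. It was the mean log2(normalized count + 1) of Arntl and Npas2 minus that of Dbp, Per3 and Nr1d1. A lower value means more of the light-period transcripts relative to Arntl and Npas2, and can come from either side. It was -5.88, -6.68, -6.08 and -6.67 in control mice 1 to 4 and -7.03, -6.18, -7.31 and -6.25 in AF1 peptide-treated mice 1 to 4. AF1 peptide-treated mice 1 and 3 lay below all control mice, and mice 2 and 4 lay among them. The index averaged -6.33 ± 0.41 in control mice (SD, n = 4) and -6.69 ± 0.56 in treated mice (SD, n = 4), a difference of -0.36 that was smaller than the SD of either group. Without AF1 peptide-treated mouse 1, the mean of the treated mice was -6.58 ± 0.63 (SD, n = 3). The light-period genes did not move together, with log2 fold changes of 0.38 for Per3, -0.24 for Nr1d1 and -0.19 for Dbp. Those of Npas2 and Arntl were -0.67 and -0.09. In AF1 peptide-treated mouse 1, Nr1d1 and Dbp were the lowest of the 8 mice, whereas Per3 was the highest. No test is given, because these genes were chosen with earlier results of these data known.

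Counting error bears on this index, since Arntl had 16 to 62 and Npas2 had 6 to 27 recovered reads per mouse. The lowest Arntl count, 16 reads in control mouse 2, had an exact 95% Poisson interval of 9.15 to 26.0 reads. The lowest Npas2 count, 6 reads in AF1 peptide-treated mouse 1, had one of 2.20 to 13.1 reads. These intervals cover counting error only. With Arntl against Dbp alone the order of the mice was different, with control mouse 2 lowest at -7.33 and AF1 peptide-treated mouse 2 highest at -5.73, and the difference between the groups turned to 0.10.

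A contrast between abundant genes avoids the low counts. It was formed after the values were seen, as the mean log2(normalized count + 1) of Per1 and Per2 minus that of Nr1d1 and Dbp. Its values were -0.31, -0.46, -0.04 and 0.15 in control mice 1 to 4 and 1.21, -0.30, 0.11 and -0.18 in AF1 peptide-treated mice 1 to 4. AF1 peptide-treated mouse 1 had by far the highest value, and the other treated mice lay within the range of the control mice. The control mean was -0.17 ± 0.28 (SD, n = 4), and that of the treated mice was 0.21 ± 0.69 (SD, n = 4), or -0.12 ± 0.21 (SD, n = 3) without mouse 1. The difference between the groups was 0.37 with that mouse and 0.04 without it. Whether that mouse was collected at another time of day was not tested.

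**Figure D2:**
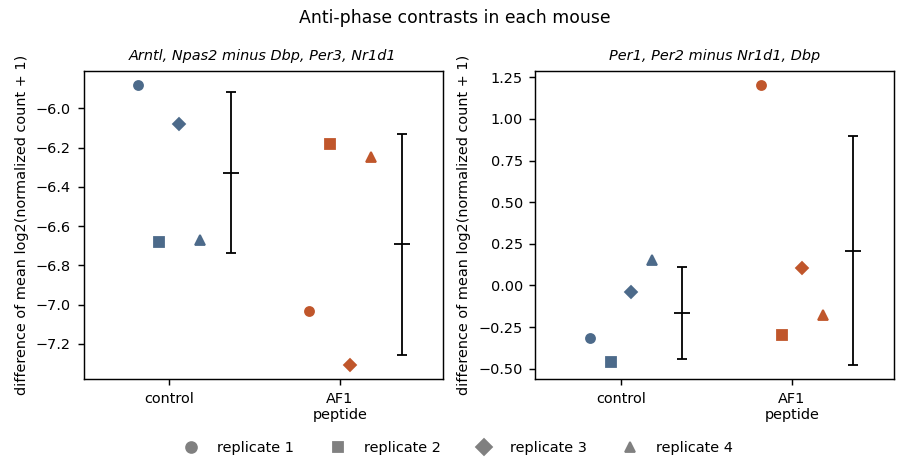
Anti-phase contrasts in each mouse, as differences of mean log2(normalized count + 1), with points by replicate and the mean ± SD of each group of 4 mice beside them. The left panel shows values of -5.88 to -7.31 with overlapping groups, and the right panel shows AF1 peptide-treated mouse 1 at 1.21 above the other mice at -0.46 to 0.15.

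The change of each gene with AF1 peptide was then read from the limma fit over all 15989 genes tested, on log2(normalized count + 1), a scale that understates the change of low genes. A gene was called at an unadjusted p value under 0.05 with more than 1.3-fold change, the thresholds of the study. Of the 10 clock genes, 1 was called higher (Per2) and 0 were called lower, where 1.79% of all genes tested were called higher, 1.9% lower and 3.69% in either direction. The groups did not overlap in 0 of the 10, where they did not overlap in 3.9% of all genes tested and were higher with AF1 peptide in 2.05%. In log2 fold change, 4 of the 10 were above 0 and 6 below, and their median was -0.08, against -0.01 over all genes tested. Without a fold threshold 1 of the 10 had a p value under 0.05, where 6.19% of all genes did. After Benjamini-Hochberg adjustment no gene of the table passed 0.05 in limma (0 genes, against 990 at an unadjusted p value under 0.05), and the smallest adjusted p value was 0.763. DESeq2 gave 3 such genes, none of them a clock gene reported here, and edgeR gave 0.

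**Figure D3:**
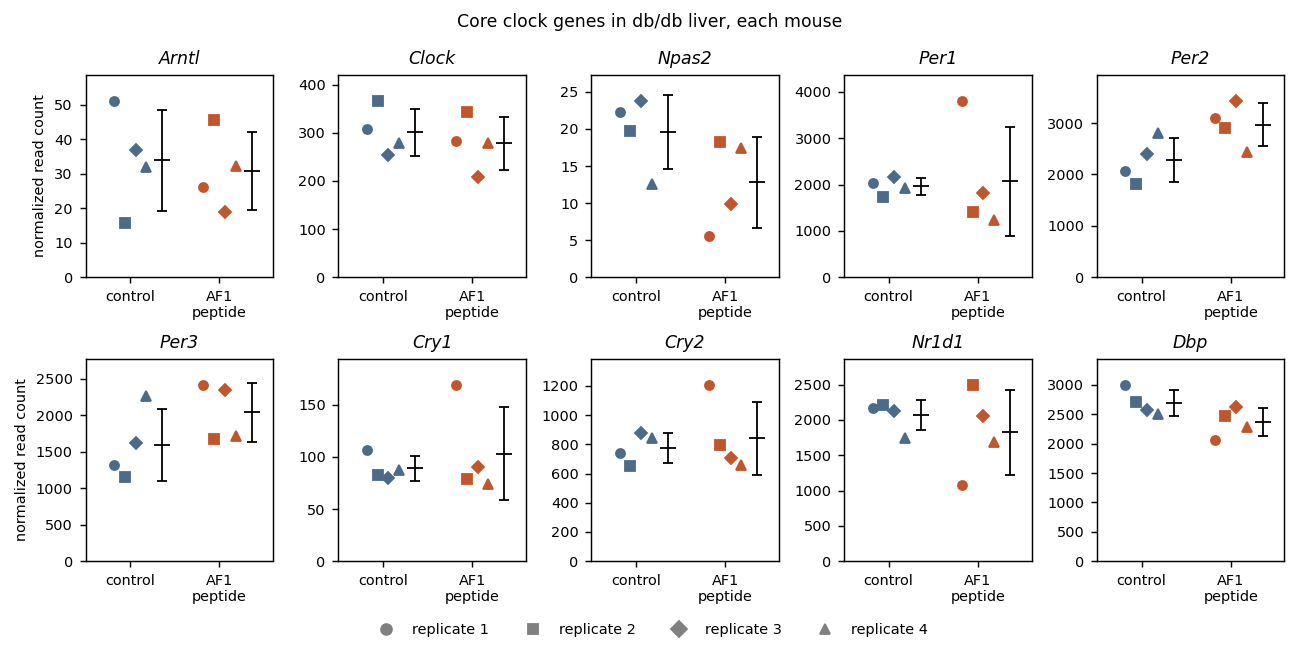
Normalized read counts of the 10 clock genes in each mouse, from 0, with points by replicate and the mean ± SD of each group of 4 mice beside them. Per2 is higher in 3 of the 4 AF1 peptide-treated mice than in any control mouse, and replicate 1 of that group lies at the top for Per1, Per3, Cry1 and Cry2 and at the bottom for Npas2, Nr1d1 and Dbp.

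The activators did not pass the test. Arntl had 51.1, 15.8, 36.8 and 31.8 normalized counts in control mice 1 to 4 and 26.1, 45.7, 18.9 and 32.1 in AF1 peptide-treated mice 1 to 4. The groups overlapped completely, and the log2 fold change was -0.09 (95% interval -0.93 to 0.74, limma adjusted p = 0.973). Its sign turned without control mouse 1 (0.14) and without AF1 peptide-treated mouse 3 (0.11). Npas2, which can take the place of Clock, had 22.3, 19.7, 23.8 and 12.6 normalized counts in control mice 1 to 4 and 5.60, 18.3, 9.89 and 17.4 in AF1 peptide-treated mice 1 to 4. All 4 treated mice lay below the 3 highest control mice, and 2 of them lay below every control mouse. Its log2 fold change of -0.67 (95% interval -1.54 to 0.21, limma adjusted p = 0.774) did not pass the test, and was -0.35 without AF1 peptide-treated mouse 1. Clock, which varied least of the activators, had 253 to 366 normalized counts in control and 209 to 343 in AF1 peptide-treated mice (log2 fold change -0.12, limma adjusted p = 0.889). Arntl2, a paralog of Arntl, had a log2 fold change of 0.09 (limma adjusted p = 0.939).

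Among the Per genes, the repressors whose transcripts follow both the clock and acute signals, only Per2 was called, at an unadjusted p value. It had 2069, 1818, 2396 and 2808 normalized counts in control mice 1 to 4 and 3100, 2910, 3430 and 2439 in AF1 peptide-treated mice 1 to 4. The groups overlapped through control mouse 4 and AF1 peptide-treated mouse 4, and the other 3 treated mice were above every control mouse. Their means were 2273 ± 428 (SD, n = 4) and 2970 ± 414 (SD, n = 4). By limma, the change was 0.39 on the log2 scale (standard error 0.15, 1.31-fold), with an unadjusted p = 0.0249 and a Benjamini-Hochberg adjusted p = 0.763, and a two-sided exact permutation test gave p = 0.0571, where 0.0286 is the smallest value that 4 mice against 4 allow. Per2 kept its call in 13 of 19 alternatives. The call was lost without control mouse 1 (log2 fold change 0.36), control mouse 2 (0.29), AF1 peptide-treated mouse 1 (0.37, under 1.3-fold) or AF1 peptide-treated mouse 3 (0.32), with each gene's own variance (0.39) and with equal totals (0.30).

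Per3, the Per gene with the D-boxes shown above, moved in the same direction without passing the test. It had 1320, 1157, 1621 and 2266 normalized counts in control mice 1 to 4 and 2412, 1677, 2350 and 1708 in AF1 peptide-treated mice 1 to 4. The range of the control mice was wide, with control mouse 4 close to the highest treated mice. The log2 fold change was 0.38 (95% interval -0.08 to 0.84, limma adjusted p = 0.764). Without control mouse 4 it was 0.57 and Per3 was called higher, where 1.85% of all genes were called higher in that fit.

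Per1 showed the clearest split within the treated group. Its counts were 2029, 1735, 2166 and 1925 in control mice 1 to 4, a narrow range, and 3805, 1403, 1824 and 1231 in AF1 peptide-treated mice 1 to 4. Mouse 1 was far above every control mouse, whereas mice 2 and 4 were below every control mouse. Over all mice the log2 fold change was -0.07 (limma adjusted p = 0.973), with the opposite sign by edgeR (0.07) and DESeq2 (0.07). Without AF1 peptide-treated mouse 1 it was -0.42 (limma adjusted p = 0.473), and Per1 was called lower, where 3.04% of all genes were called lower and 2.86% higher in that fit.

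The ratio of Per1 to Per2 within each mouse, chosen after the values were seen and given with no test, brought these together. It was 0.980, 0.954, 0.904 and 0.686 in control mice 1 to 4, and 0.482, 0.532 and 0.505 in AF1 peptide-treated mice 2 to 4, all below the control mice. In AF1 peptide-treated mouse 1 it was 1.23, above every other mouse. The ratio of Per2 to Dbp, also chosen after the values were seen, sets a gene with a higher treated mean over one with a lower treated mean. It was 0.690, 0.673, 0.931 and 1.12 in control mice 1 to 4 and 1.50, 1.18, 1.31 and 1.07 in AF1 peptide-treated mice 1 to 4, with overlap only between control mouse 4 and AF1 peptide-treated mouse 4. Ratios of anti-phase genes overlapped between the groups. Dbp to Arntl was 58.7 to 171 in control and 54.1 to 138 in treated mice, and Nr1d1 to Npas2 was 89.2 to 139 and 96.7 to 208.

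The cryptochromes, which form the repressor complex with PER proteins, did not pass the test. Cry1 had 80.0 to 106 normalized counts in control mice, and 169, 78.5, 90.6 and 74.4 in AF1 peptide-treated mice 1 to 4. Its log2 fold change of 0.14 (limma adjusted p = 0.919) turned to -0.13 without AF1 peptide-treated mouse 1. Cry2 had 652 to 876 normalized counts in control mice and 1207 in AF1 peptide-treated mouse 1, against 656 to 795 in the other treated mice. Its log2 fold change of 0.08 (limma adjusted p = 0.936) turned to -0.11 without that mouse and to -0.01 with equal totals. The higher treated mean of both genes rested on 1 liver.

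Nr1d1, the gene of REV-ERBα, had 2166, 2217, 2122 and 1748 normalized counts in control mice 1 to 4 and 1071, 2493, 2056 and 1687 in AF1 peptide-treated mice 1 to 4. Mouse 1 of the treated group was lowest and mouse 2 highest of all 8 mice, so that the treated mice enclosed the control mice. The log2 fold change was -0.24 (95% interval -0.72 to 0.25, limma adjusted p = 0.834) and -0.0012 without AF1 peptide-treated mouse 1. Its paralog Nr1d2 (REV-ERBβ), by contrast, had 1493 to 2135 counts in control and 1821 to 2195 in treated mice (log2 fold change 0.17, limma adjusted p = 0.792). Exons of Thra on the opposite strand cover 8.55% of the exon length of Nr1d1, and whether reads were counted by strand is not given in the sources used here.

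Rora, a nuclear receptor that activates RORE genes, had 389 to 580 counts in control and 433 to 636 in treated mice (log2 fold change 0.01, limma adjusted p = 0.989, and -0.08 with equal totals).

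Dbp, the D-box activator that is the most abundant of the 10 genes per exon length, had 2997, 2700, 2575 and 2505 normalized counts in control mice 1 to 4 and 2066, 2471, 2624 and 2287 in AF1 peptide-treated mice 1 to 4. Treated mice 1, 2 and 4 were below every control mouse, while mouse 3 lay among them. The log2 fold change of -0.19 (95% interval -0.42 to 0.04, limma adjusted p = 0.765) did not pass the test. Dbp had the smallest spread of the 10 genes, with a within-group SD of 0.13 on the log2 scale. Sphk2 exons on the opposite strand cover 18.0% of its exon length. Its relative Tef, also a D-box activator, had 5018 to 6808 counts in control and 6435 to 9276 in treated mice (log2 fold change 0.32, limma adjusted p = 0.763, under 1.3-fold), and 0.20 without AF1 peptide-treated mouse 1. Hlf, the third member of that family, had a log2 fold change of -0.01 (limma adjusted p = 0.994). Nfil3, which represses D-box genes, had 721 counts in AF1 peptide-treated mouse 1 and 163 to 425 in the other 7 mice (log2 fold change 0.34, limma adjusted p = 0.855).

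The other clock genes added Usp2, a rhythmic deubiquitinase gene that showed the largest called change of the clock genes reported here. It had 315, 478, 438 and 523 normalized counts in control mice 1 to 4 and 918, 862, 591 and 614 in AF1 peptide-treated mice 1 to 4. The groups did not overlap, and treated mice 1 and 2 were highest. By limma it changed by 0.76 on the log2 scale (standard error 0.19, unadjusted p = 0.00241, adjusted p = 0.763, two-sided exact permutation p = 0.0286). Usp2 was called in 19 of 19 alternatives, and its log2 fold change was 0.65 without AF1 peptide-treated mouse 1. Ciart, a repressor of the activators, had 1858 counts in AF1 peptide-treated mouse 1 and 762 to 1074 in the other mice. Bhlhe40 and Bhlhe41, which compete for E-boxes, had log2 fold changes of -0.31 and -0.27 (limma adjusted p = 0.834 and 0.891), with their highest counts in control mouse 2 (4781 and 249). Timeless and Tipin, which act mainly at the replication fork, had log2 fold changes of 0.13 and -0.14.

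Of the 33 clock genes reported here, 32 were tested (Rorb is not a row of the table), 2 were called higher (Per2 and Usp2) and 0 lower, a number near the background of 3.69% of all genes called in either direction. Of 10 genes whose products modify or mark clock proteins for decay (kinases, ubiquitin ligase parts, the phosphatase subunit gene Ppp1cb and the deacetylase gene Sirt1), 0 were called, and their log2 fold changes ran from -0.29 (Prkaa2, limma adjusted p = 0.763, under 1.3-fold) to 0.21 (Sirt1). Their median within-group SD was 0.16 on the log2 scale, against 0.37 for the 10 core clock genes and 0.24 over all genes tested. Arntl had the largest such SD of the 10 core genes (0.61), higher than in 90.4% of all genes tested. Dbp had the smallest, higher than in 15.3%. Counting error adds more to the SD of Arntl, with 16 to 62 recovered reads per mouse against 1353 to 3637 for Dbp. The part of counting error in these SDs was not tested.

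**Figure D4:**
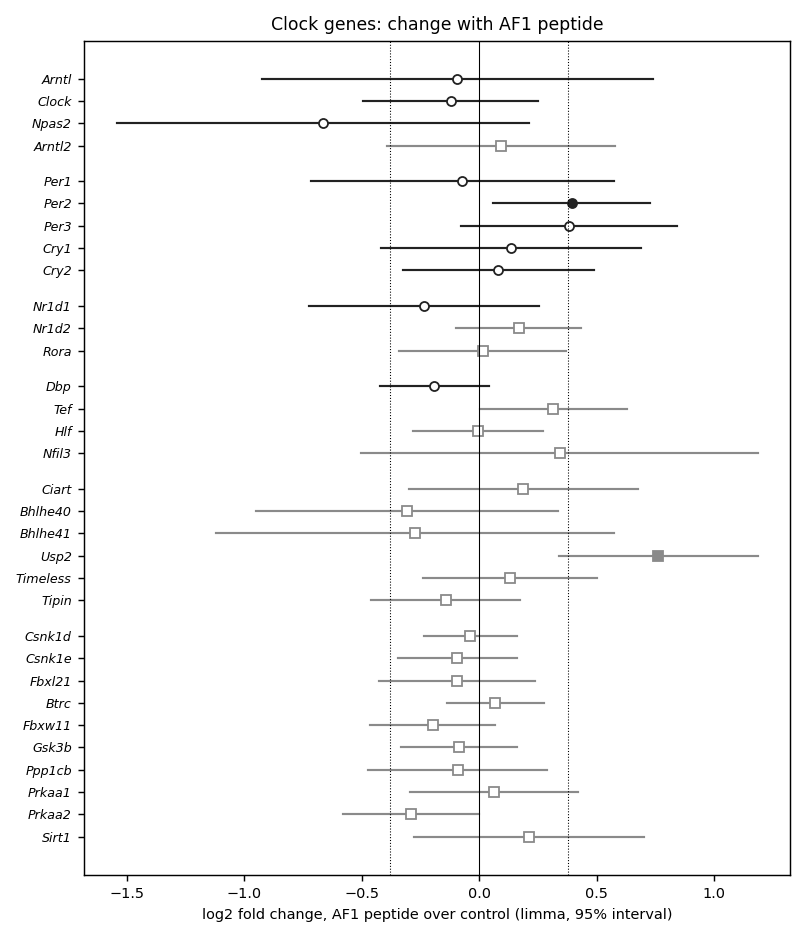
Log2 fold change of 32 clock genes with AF1 peptide over control, with 95% intervals from limma, in the order activators, Per and Cry genes, REV-ERB and ROR genes, PAR-bZIP genes with Nfil3, other feedback genes, and genes that modify clock proteins. Circles are the 10 core genes, squares the other genes, filled symbols are called genes (Per2 and Usp2), and dotted lines mark 1.3-fold.

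AF1 peptide-treated mouse 1 had the highest value of the 8 mice in 4 core clock genes (Per1, Per3, Cry1 and Cry2) and the lowest in 3 (Npas2, Nr1d1 and Dbp), so that 7 of 10 were at an extreme in it, beside 49.3% of all genes tested. Its Per1 count was 2.56 times, its Cry1 count 2.08 times and its Nr1d1 count 0.515 times the mean of the other treated mice. Genes induced by glucocorticoids, hormones that act directly on Per1, were measured as a list of 8, chosen with earlier results of these data known. AF1 peptide-treated mouse 1 had the highest value in 8 of the 8, beside 25.9% of all genes tested. Tat, tyrosine aminotransferase, had 68707 normalized counts in it, against 6311 to 9220 in the other treated mice and 7551 to 23826 in control mice. Tsc22d3, the gene of GILZ, had 1488 against 749 to 972 in the other 7 mice, and Sgk1 had 650 against 139 to 359. In Tat and Tsc22d3 the other 3 treated mice lay within or below the range of the control mice, and in Sgk1 all of them were below every control mouse. The part of these genes in the clock values of that mouse was not tested.

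**Figure D5:**
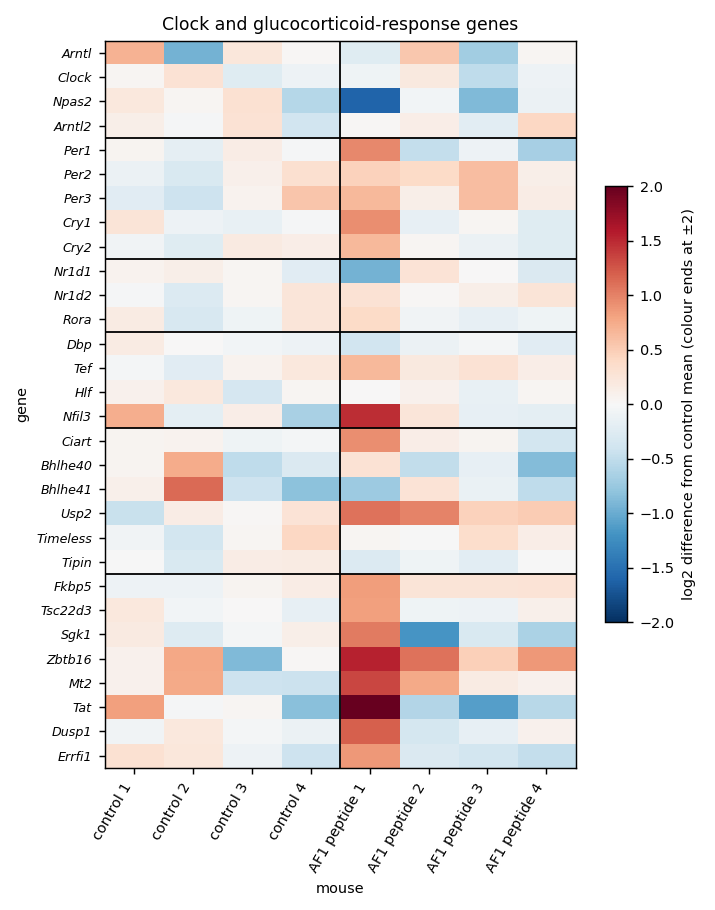
Log2 difference of each gene from its control mean in each mouse, for 22 clock genes and 8 glucocorticoid-response genes, with lines between the gene lists and between the groups and a colour scale that ends at 2 in each direction. The column of AF1 peptide-treated mouse 1 is red for Per1, Cry1, Nfil3 and each of the 8 glucocorticoid-response genes and blue for Npas2 and Nr1d1.

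Between the groups, 2 of these 8 genes were called higher and 0 lower, beside 1.79% and 1.9% of all genes tested. Because the list was chosen with earlier results known, these counts are a description and not a test. Fkbp5, a chaperone gene of the glucocorticoid receptor, had 594, 595, 657 and 701 normalized counts in control mice 1 to 4 and 1136, 760, 758 and 771 in AF1 peptide-treated mice 1 to 4. The groups did not overlap, and treated mice 2 to 4 lay close together just above the control mice (log2 fold change 0.41, standard error 0.14, unadjusted limma p = 0.0159, adjusted p = 0.763, exact permutation p = 0.0286). Without AF1 peptide-treated mouse 1 it was 0.26, under 1.3-fold. Zbtb16, a zinc finger gene, had 155, 249, 78.9 and 147 counts in control mice 1 to 4 and 426, 310, 203 and 265 in AF1 peptide-treated mice 1 to 4 (log2 fold change 0.99, standard error 0.32, unadjusted limma p = 0.0113, adjusted p = 0.763, exact permutation p = 0.0571). Here 3 of the 4 treated mice were above every control mouse, and the log2 fold change was 0.81 without AF1 peptide-treated mouse 1.

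Of 16 liver genes known to cycle under the clock or with feeding, 0 were called higher and 1 lower, beside 1.79% and 1.9% of all genes tested. This list too was chosen with earlier results of these data known. Insig2, a REV-ERB target that restrains sterol synthesis, had 5141, 5034, 3991 and 3189 normalized counts in control mice 1 to 4 and 1435, 3242, 2401 and 3823 in AF1 peptide-treated mice 1 to 4. The groups overlapped, with treated mice 1 and 3 below every control mouse (log2 fold change -0.74, standard error 0.28, unadjusted limma p = 0.0233, adjusted p = 0.763, exact permutation p = 0.0857). It was called in 16 of 19 alternatives, and the log2 fold change was -0.46 without AF1 peptide-treated mouse 1. Noct, a rhythmic RNA-binding protein gene, had 4312 counts in AF1 peptide-treated mouse 1. Its counts were 535 to 787 in the other treated mice and 873 to 1257 in control mice. Rgs16, by contrast, had 277 in that mouse and 3384 to 10048 in the others. That mouse was highest in 6 of the 16 genes and lowest in 5, beside 25.9% and 23.4% of all genes tested. Wee1 (log2 fold change 0.01), Nampt (0.16) and Gys2 (0.04), which carry E-box control, did not pass the test (limma adjusted p = 0.996, 0.854 and 0.964).

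The genes whose pattern over the 8 mice was most like the phase index were named by Pearson's r among the 12435 genes whose normalized counts averaged 50 or more. Fcsk (r = 0.99), Camk2g (0.96), Pnrc2 (0.95), Cnot6 (0.95) and Taf13 (0.94) were most like it. Ttc7 (r = -0.98), Pex6 (-0.94), Slc39a13 (-0.93), Nckap5l (-0.92) and Unc5a (-0.91) were most opposite. Without the mice farthest from the median of the index, control mouse 1 and AF1 peptide-treated mouse 3, r over the 6 others was 0.97 for Fcsk and -0.95 for Ttc7. These values were the largest among 12435 over the same libraries as the index, and no p value belongs to them.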

How the data were processed

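Liver RNA of 4 control and 4 AF1 peptide-treated db/db mice was isolated with TRIzol, and a stranded mRNA kit was used for the libraries. The submitters' processing notes name Trim Galore 0.6.7, HISAT2, SAMtools 1.17 and mm39, and the study counted reads with GenomicAlignments. The authors deposited normalized counts, a signal equal to reads divided by a size factor per library. The annotation and the use of strand in counting are not given in the sources used here. Groups and replicate numbers came from the sample titles, which name biological replicates. Whole reads came back in 100% of values (tolerance 0.01 read), and edgeR 4.0.16 on them called 344 genes higher and 283 lower.

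The log2(normalized count + 1) of genes with a mean of at least 10 was fitted with limma 3.58.1 in R 4.3.3, with an intensity trend. The fit was also run on simulated counts. These held no outlying mouse and planted changes larger than that of Per2, so they do not show how the fit performs for the changes read here. The clock genes, the lists and the alternatives were chosen with earlier results of these data known. Named genes were the 10 core genes, the other clock genes, called or extreme genes of the lists, and those most like the phase index. Some other clock genes were left out of the lists and are not reported here. Alternatives were other pseudocounts, filters and scalings, other variance models, a replicate block, edgeR, DESeq2 1.42.0 and each mouse left out. Exon lengths and overlaps came from GENCODE M21 (GRCm38).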

Additional observations from a re-analysis of the deposited data

Results flagged for a closer look

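In 6 cases the highest or lowest mouse of a group stood apart from the others by a gap that, divided by the whole range of the group, passed Dixon's critical value for 4 samples. The 40 genes and indices gave 80 groups, in which about 1 in 20, or 4, would pass by chance. They did not include every gene named above. Tat and Noct, far higher in AF1 peptide-treated mouse 1 than in the other treated mice, were not among them. AF1 peptide-treated mouse 1 was the mouse in 4 of the 6. It was highest for Fkbp5 (1136 against 771 normalized counts in the next mouse, gap over range 0.964), Rora (636 against 466, 0.840) and Nfil3 (721 against 307, 0.834), and lowest for Prkaa1, a subunit gene of AMP-activated kinase (124 against 191, 0.891). AF1 peptide-treated mouse 3 was highest for the PER kinase gene Csnk1e (361 against 291, 0.857). Control mouse 4 was highest for the deacetylase gene Sirt1 (213 against 126, 0.924).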

How the results depend on the processing

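Each change in the clock genes was read at a small group size, and depth limits Arntl and Npas2, with as few as 16 and 6 reads. Over all genes, 286 were called higher and 304 lower. These counts became 435 and 459 with no filter on low values, 122 and 603 with equal totals, 506 and 484 with no fold threshold, and 197 lower with each gene's own variance. The median change over all genes went from -0.01 to -0.10 on the log2 scale with equal totals. Omitting 1 mouse at a time gave 201 to 457 genes called higher and 172 to 486 lower, the fewest without control mouse 2 and the most without AF1 peptide-treated mouse 1. Of the 10 core clock genes, 1 was called, 0 with equal totals or own variance, and 0 to 2 with a mouse left out: 0 without control mouse 1, control mouse 2 or AF1 peptide-treated mouse 3, 2 (Per2 and Per3) without control mouse 4, and Per1 in place of Per2 without AF1 peptide-treated mouse 1. The cause of these shifts was not tested.

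The log2 fold change turned sign by edgeR (0.071) and DESeq2 (0.073) for Per1 and with equal totals for Cry2 (-0.0094), Rora (-0.077), Btrc (-0.022) and Prkaa1 (-0.026). With a mouse left out it ran from -0.41 to 0.14 for Arntl, -0.23 to 0.0073 for Clock, -0.42 to 0.13 for Per1, -0.13 to 0.26 for Cry1, -0.11 to 0.19 for Cry2, -0.038 to 0.19 for Arntl2, -0.11 to 0.10 for Rora, -0.12 to 0.065 for Hlf, -0.037 to 0.58 for Nfil3, -0.057 to 0.37 for Ciart, -0.55 to 0.10 for Bhlhe41, -0.073 to 0.0018 for Csnk1d, -0.20 to 0.071 for Ppp1cb and -0.0015 to 0.22 for Prkaa1. The phase index difference turned to 0.10 with Arntl against Dbp alone, was -0.43 with Npas2 against Nr1d1 alone and -0.17 with more genes on each side, and ran from -0.53 to -0.16 with a mouse left out. Npas2 gave no value with a minimum of 10 in every mouse.

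With the replicate number as a block, 341 genes were called higher and 392 lower, and Per2 stayed at a log2 fold change of 0.39 and was the 1 core clock gene called. Across genes, the deviations of same-numbered mice had correlations of 0.24, 0.02, 0.22 and -0.06, and those of differently numbered mice -0.27 to 0.14. The values of replicates 1 and 3 were above every differently numbered pair. The sample titles name biological replicates, and the numbers were not taken as pairs.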

Other observations

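Other signals that can reach the liver clock were measured as lists, whose counts stand beside 1.79% of all genes tested called higher and 1.9% called lower. These lists too were chosen with earlier results of these data known. Of 10 genes induced by fasting, 0 were called, and AF1 peptide-treated mouse 1 had the highest value of the 8 mice in 4 and the lowest in 4. Igfbp1, a secreted binder of insulin-like growth factors, had 1180 normalized counts in it and 119 to 545 in the others, whereas Fgf21, a fasting hormone, had 81.2 in it and 470 to 1209 in the others. Of 8 genes induced by feeding, 0 were called higher and 1 lower. AF1 peptide-treated mouse 1 had the highest value of the 8 mice in 1 of them and the lowest in 6. Over all genes tested it was highest in 25.9% and lowest in 23.4%. Pnpla3 had 15.9 counts in it and 322 to 1090 in the others. Fasn, fatty acid synthase, had 42323, 44932, 41616 and 39709 counts in control mice 1 to 4 and 20625, 34727, 32875 and 36334 in AF1 peptide-treated mice 1 to 4, with no overlap between the groups. By limma its log2 fold change was -0.47 (unadjusted p = 0.0338, adjusted p = 0.763). Fasn was called in 14 of 19 alternatives, and its log2 fold change was -0.28, under 1.3-fold, without AF1 peptide-treated mouse 1.

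Of 8 genes that respond to temperature, 0 were called, and the cold-induced Rbm3 had a log2 fold change of -0.36 (limma adjusted p = 0.763). Of 8 immediate early genes, 0 were called, and AF1 peptide-treated mouse 1 had the highest value of the 8 mice in 3 and the lowest in 2. Nr4a1 had 303 counts in it and 60.6 to 109 in the others, whereas Atf3 had 70.0 in it and 117 to 256 in the others. Among markers of other liver cells, beside the 1.9% of all genes called lower, 1 of 6 Kupffer cell genes (Adgre1) and 1 of 6 stellate cell genes (Dcn) were called lower, and 0 of 6 endothelial, 0 of 5 cholangiocyte, 0 of 5 red blood cell and 0 of 2 adipocyte genes tested were called.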
